A study of Mus musculus with 12 samples.

Results

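The miR-148/miR-152 family is a set of 3 mouse miRNAs, miR-148a-3p (MIMAT0000516), miR-148b-3p (MIMAT0000580) and miR-152-3p (MIMAT0000162), which carry the same seed. The members were chosen by their accessions, with their difference between depleted and undepleted serum RNA already known, and all 3 were found among the 874 mature miRNAs listed in the mouse tables. Small RNA was sequenced from 6 sera of 3 female athymic NCr nude mice (mice 1046, 1047 and 1069). Each mouse was bled before and 2 weeks after 1000000 human SH-SY5Y cells, an established neuroblastoma line, had been implanted under the renal capsule at 4 to 6 weeks of age. RNA from 50 μl of each serum was split into 2 aliquots, and 1 of them was depleted of 5′ tRNA fragments, which otherwise take most reads of murine serum libraries, with biotinylated DNA probes and streptavidin beads. This gives 4 groups of 3 libraries: before and after injection, each undepleted and depleted. All 3 mice received tumor cells, so tumor and elapsed time cannot be told apart.

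A miRNA recognises its target mRNAs mainly through the seed, bases 2 to 8 from its 5′ end, so members of a seed family can repress overlapping sets of mRNAs. The miR-148/miR-152 family is known for repressing Dnmt1, the maintenance DNA methyltransferase, and miR-148a is abundant in liver. In serum, miRNAs are protected from nucleases by vesicles or protein complexes.

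The mature sequences are given below, as RefSeq lists them for GRCm38, to show where the members are alike and where they part. Capitals mark the seed.
miR-148a-3p: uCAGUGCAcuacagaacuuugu
miR-148b-3p: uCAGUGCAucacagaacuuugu
miR-152-3p: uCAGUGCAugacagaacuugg
Of the 1738 mature mouse miRNAs in the RefSeq table, these 3 alone have this seed in that position. The same 7 letters stood somewhere in 17 of the 1738 sequences, or 0.978%. Counting from 1 at the 5′ end, miR-148a-3p and miR-148b-3p differ by C9U and U10C, with miR-148a-3p given first. From miR-148a-3p to miR-152-3p the changes are C9U, U10G and U20G, and from miR-148b-3p to miR-152-3p they are C10G and U20G. miR-152-3p is 21 bases long and the others 22 bases. GC content was 40.9% for miR-148a-3p and miR-148b-3p and 47.6% for miR-152-3p. Reads were mapped without mismatches and kept from 15 bases upward, and no run of 15 bases is shared between any members or with another mature sequence in the table. Over the annotated mature sequence, a full match of that length thus fits only 1 of the 3.

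The hairpins lie on different chromosomes. Mir148a is annotated on the minus strand at chr6:51269812-51269910, outside any other gene, with Nfe2l3 as the nearest protein-coding gene at 162760 bases. Mir148b is found on the plus strand at chr15:103285125-103285221, within Copz1, and Mir152 on the plus strand at chr11:96850393-96850465, within Copz2. Both hosts encode zeta subunits of the COPI coat of transport vesicles and run in the same direction as the hairpin, and neither hairpin overlaps an annotated exon of its host (GENCODE M21), so both are intronic. The counts give mature miRNAs, not transcripts of these loci.

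The depleted libraries held 938706 to 2271549 counts in the mouse tables and the undepleted ones 21235 to 97183. The smallest library was the undepleted one made from mouse 1069 before injection, and the next smallest held 49443 counts. Levels are given below as shares of all mouse miRNA counts in a library, per 1000000 counts (ppm), or as normalised counts, which are counts divided by DESeq2's median-of-ratios size factor over the 12 libraries. Intervals are exact 95% intervals and cover counting error only.

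First, the level of each member was examined in all libraries. The first serum of mouse 1069 stood apart from the other 5 sera for part of the family, and values that rest on it are given with and without it. miR-148a-3p was the main member. In undepleted libraries its share before injection was 6658 ppm in mouse 1046, 6111 ppm in mouse 1047 and 34989 ppm in mouse 1069. After injection these mice had 6046, 5697 and 6310 ppm. In depleted libraries the shares were 6540, 5282 and 34895 ppm before injection and 7045, 6163 and 6983 ppm after it. The 2 aliquots of the first serum of mouse 1069 were thus both high, 5.68-fold (undepleted) and 5.45-fold (depleted) above the mean of the other 5 sera, which were 6165 ± 353 and 6402 ± 721 ppm (SD, n = 5). Both aliquots came from the same RNA, so this is 1 serum seen in 2 libraries and not a replicated observation.

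miR-148b-3p, the scarcest member in depleted libraries, showed no such excess. Its share in depleted libraries was 295, 237 and 255 ppm before injection in mice 1046, 1047 and 1069 and 243, 278 and 259 ppm after it, with the first serum of mouse 1069 in the middle of the range. Undepleted libraries held only 15, 26 and 4 counts of it before injection and 13, 10 and 2 counts after it. These correspond to 154, 289 and 188 ppm before injection and 191, 192 and 40.5 ppm after it, and the interval of the last value is 4.90 to 146 ppm.

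For miR-152-3p the aliquots differed most. Undepleted libraries held 3, 6 and 0 counts before injection and 3 counts in each mouse after it. Depleted libraries held 1345, 1406 and 3560 counts before injection and 2481, 2428 and 3575 counts after it. The depleted shares were 998, 772 and 3792 ppm before injection and 1393, 1394 and 1574 ppm after it, against 30.9, 66.7 and 0 ppm and 44.0, 57.7 and 60.7 ppm in undepleted libraries. The 0 counts in the first serum of mouse 1069, out of 21235, allow a share of up to 141 ppm by a floor of 3 counts, and of up to 174 ppm by the exact interval. No undepleted library overlapped with a depleted one. In depleted libraries the first serum of mouse 1069 was 3.09-fold above the mean of the other 5 sera (1226 ± 330 ppm, SD, n = 5), so 2 of the 3 members were high in that serum.

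**Figure D1:**
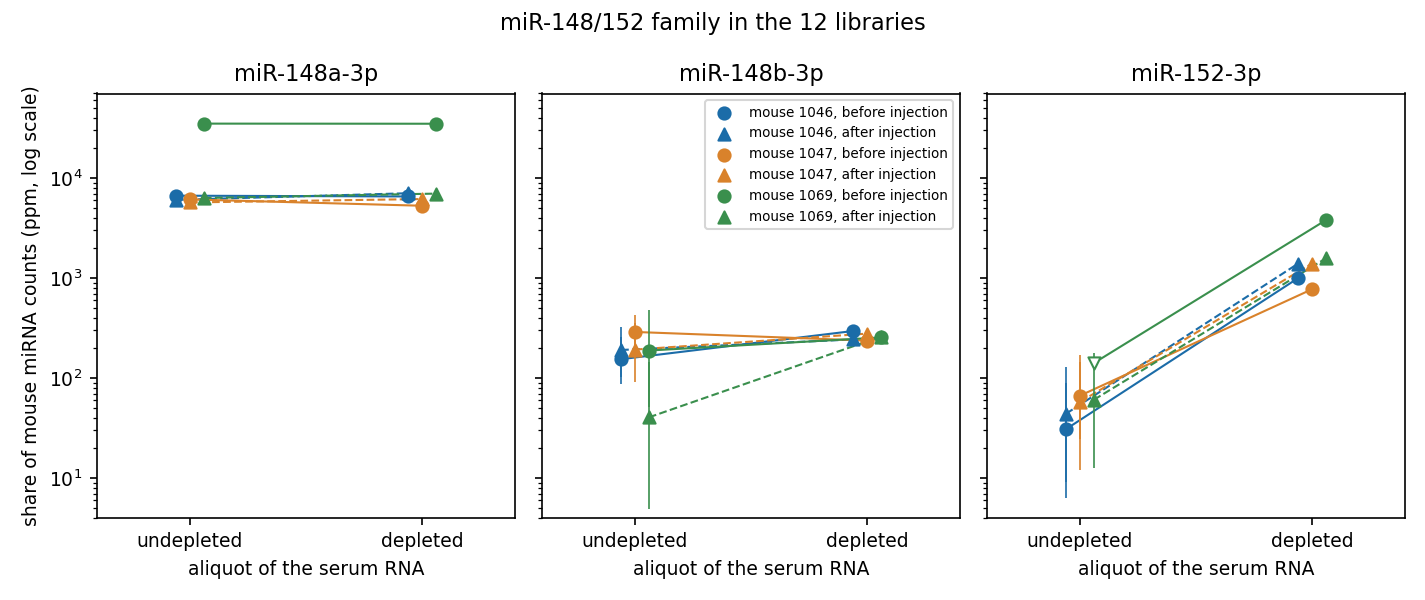
Share of mouse miRNA counts (ppm, log scale) of each member in the undepleted and depleted aliquot of each serum, with lines joining aliquots of a serum, colours for mice, circles and solid lines for sera before injection, triangles and dashed lines for sera after it, and bars for exact 95% counting intervals. The open triangle pointing down marks the library with 0 counts at its floor of 3 counts, 141 ppm, and not at its exact upper limit of 174 ppm. miR-148a-3p lies flat with 1 serum at 34989 and 34895 ppm, and miR-152-3p rises steeply in every serum.

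Next, the gain upon depletion was compared between the members. This is the contrast the members were chosen on, so the values are a description and were not tested. The gain is the log2 ratio of normalised counts (plus 1) between the depleted and the undepleted aliquot of a serum. A value of 0 means that the miRNA kept its place among the other miRNAs, not that no molecules were lost. Gains were computed for 115 mouse miRNAs whose normalised counts averaged 50 or more over the libraries. Their median gain was 0.005, and 101 of them lay within 1 log2 unit of 0. All 3 members passed this filter, with mean normalised counts of 3117, 65.4 and 234 for miR-148a-3p, miR-148b-3p and miR-152-3p. miR-152-3p passed it only through the depleted libraries.

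miR-148a-3p showed a gain of -0.08 ± 0.11 (SD, n = 6 sera), with values between -0.27 and 0.05, and was higher in the depleted aliquot of 2 sera and lower in that of 4. Its share in the depleted aliquot was 0.864 to 1.17 times that in the undepleted one, so its raw counts followed the library total. In the first serum of mouse 1069, they were 44.1-fold higher in the depleted aliquot, where the total was 44.2-fold higher. Ranked by gain, miR-148a-3p was number 74 of 115.

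miR-148b-3p had a gain of 0.64 ± 0.99 (SD, n = 6), ranging from -0.34 to 2.49, and rank 19. The mean was 0.25 without mouse 1069 and 0.95 without mouse 1047. It was higher in the depleted aliquot of 5 sera. The largest value belongs to the second serum of mouse 1069, with 2 counts in the undepleted library, where the ratio of shares was 6.41 with an interval of 1.77 to 53.1. In 4 of the 6 sera the interval of this ratio included 1. With at most 26 undepleted counts, the gain of miR-148b-3p could not be told from 0 in those 4 sera at this depth.

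miR-152-3p was higher in the depleted aliquot of all 6 sera. This ordering was seen in 25.2% of the 115 miRNAs, and depleted libraries lay above undepleted ones without overlap for 8.7% of them. In the 5 sera with a count in the undepleted aliquot the gain was 4.36 ± 0.55 (SD, n = 5), a 20.5-fold higher normalised count. The ratio of shares was 32.3 (interval 11.0 to 157) and 11.6 (5.31 to 31.6) before injection in mice 1046 and 1047, and 31.6 (10.8 to 154), 24.1 (8.25 to 117) and 25.9 (8.87 to 126) after it in mice 1046, 1047 and 1069. In the first serum of mouse 1069 the ratio of shares was 26.8 when taken against a floor of 3 counts in the undepleted library. The exact interval had a lower limit of 21.8. Had miR-152-3p kept its depleted share, between 69.5 and 96.9 counts would have been found per undepleted library, whereas at most 6 were present. With all 6 sera the mean gain was 5.28, a value that depends on the added count because of the library with 0, and it ranked first of 115. By CPM (counts per 1000000 counts of the library), or with 0.5 added in place of 1, it ranked second. The next on this list were MIMAT0000224, MIMAT0000657 and MIMAT0009458, named after their values were seen, with gains of 5.15, 4.59 and 4.41.

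**Figure D2:**
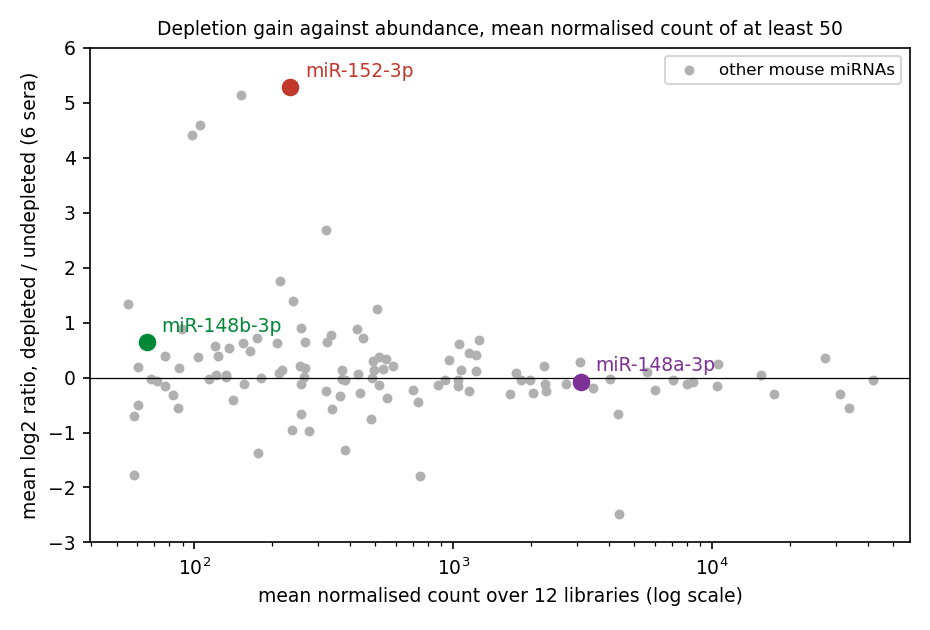
Mean log2 ratio of depleted to undepleted normalised counts over 6 sera against the mean normalised count over 12 libraries (log scale), for 115 mouse miRNAs, with the family members in colour. Most points lie near 0, as does miR-148a-3p at -0.08, while miR-152-3p sits at 5.28 near 3 other miRNAs.

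A ratio of members within a library needs no normalization. For every 100 reads of miR-148a-3p, depleted libraries held between 10.9 and 22.6 of miR-152-3p, and undepleted ones between 0 and 1.09. On the log2 scale, with 0.5 added to each count, this ratio was -2.55 ± 0.42 in depleted and -7.37 ± 1.61 in undepleted libraries (SD, n = 6 each), a difference of 4.82 ± 1.29 over the 6 sera. With nothing added and the library with 0 counts left out, the difference was 4.52. Without mouse 1069 it was 4.31. The order of the scarcer members also changed. In undepleted libraries miR-152-3p was below miR-148b-3p in 5 of 6 sera, the exception being the second serum of mouse 1069 with 3 against 2 counts. In depleted libraries it was above miR-148b-3p in every serum, by a log2 ratio of 1.70 to 3.89. In contrast, the ratio of miR-148b-3p to miR-148a-3p differed by 0.62 ± 0.85 between aliquots (SD, n = 6), less than its spread between sera.

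The make-up of the family shifted with these ratios. miR-148a-3p took 94.5% to 99.5% of the family's counts in undepleted libraries and 78.7% to 89.6% in depleted ones. The part of miR-152-3p was at most 1.03% in undepleted and between 9.74% and 17.9% in depleted libraries. The family as a whole made up 0.595% to 0.684% of mouse counts in undepleted libraries and 0.629% to 0.882% in depleted ones, leaving aside the first serum of mouse 1069, where it was 3.52% and 3.89%.

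**Figure D3:**
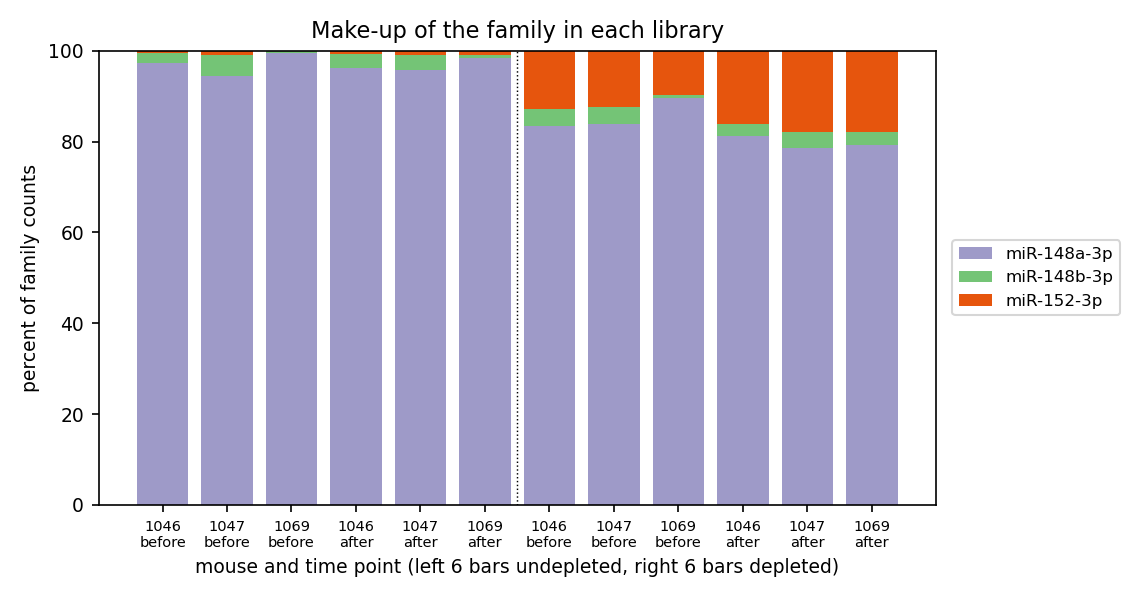
Percent of the family's counts taken by each member in the 12 libraries, 1 bar per library. miR-152-3p, at the top of the bars, is at most 1.03% of the family in the 6 undepleted libraries and 9.74% to 17.9% in the 6 depleted ones.

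To ask whether the family changed with tumor growth, the later sera were set against the earlier ones, within each kind of library. This contrast did not serve to choose the members. A miRNA was called changed in DESeq2 when it moved 2-fold or more with an adjusted p-value under 0.05, and 10.6% of the 310 tested mouse miRNAs were called in depleted and 11.1% of 108 in undepleted libraries. In the main DESeq2 fit, with median-of-ratios size factors and time point only, none of the 3 members was called in either arm. None had an unadjusted p-value under 0.05 in that fit. miR-148a-3p was called in both arms with edgeR's quasi-likelihood test and in DESeq2 with TMM factors.

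Normalised counts of miR-148a-3p in depleted libraries were 2088, 1780 and 8733 before injection in mice 1046, 1047 and 1069 and 1852, 1673 and 2023 after it. The log2 change after injection was small in mice 1046 and 1047 (-0.17 and -0.09) and -2.11 in mouse 1069. DESeq2 put the change at a log2 fold change of -0.85 ± 0.51 (SE, adjusted p = 0.244). In undepleted libraries, made from the same sera, the 3 mice changed by -0.27, -0.30 and -2.26. The fitted value there was -0.93 ± 0.48 (SE, DESeq2 adjusted p = 0.155). The call turned on the method. The log2 fold change was -1.22 in depleted and -1.26 in undepleted libraries with edgeR (adjusted p = 0.00333 and 0.00520), and -1.03 and -1.04 with TMM factors in DESeq2 (adjusted p = 0.0384 and 0.0450). With the mouse as a replicate block the values were -0.91 (DESeq2 adjusted p = 0.0710) in depleted and -0.95 (DESeq2 adjusted p = 0.0475) in undepleted libraries, under the 2-fold cut-off. The DESeq2 values are shrunken by a prior on fold changes. In the main fit without that prior, they were -1.34 in depleted (DESeq2 adjusted p = 0.262) and -1.37 in undepleted libraries (DESeq2 adjusted p = 0.118). The size rested on mouse 1069: without it the log2 fold change was -0.22 in depleted (DESeq2 adjusted p = 0.305) and -0.33 in undepleted libraries (DESeq2 adjusted p = 0.256).

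The first serum of mouse 1069 was therefore examined across the other miRNAs. It was singled out by its level of miR-148a-3p, so the place of that miRNA among the others is a description. Among the same 115 miRNAs, miR-148a-3p was the only one that stood more than 4-fold above the mean of the other 5 sera in both aliquots. In depleted libraries MIMAT0000153, named after its values were seen, did so as well (4.37-fold), and reached 3.91-fold in undepleted ones. The median ratio over the 115 miRNAs was 1.04 and 1.02. The share of mmu-miR-16-5p (MIMAT0000527), a miRNA rich in red blood cells, was 10.8% in this serum's depleted library, the lowest of the 3 sera drawn before injection, which reached 12.6%. Its undepleted share was 14.5%, also the lowest, with a highest value of 17.8%. Across sera, miR-16-5p itself fell after injection, by 1.07 on the log2 scale in depleted libraries (SE 0.25, DESeq2 adjusted p = 0.000882). The part of red blood cell RNA in the values of the family was not tested.

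miR-148b-3p had normalised counts of 94.3, 79.8 and 63.7 before injection and 63.9, 75.5 and 75.1 after it in depleted libraries, and the groups overlapped. The fitted log2 change was -0.27 ± 0.26 (SE, DESeq2 adjusted p = 0.509). It was lower after injection in 2 of 3 mice. In undepleted libraries, with 2 to 26 counts per library, the fitted change was -0.47 ± 0.49 (SE) and no adjusted p-value was given, since independent filtering removed it.

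The normalised counts of miR-152-3p in depleted libraries were 319, 260 and 949 before injection and 366, 379 and 456 after it. It was higher after injection in mice 1046 and 1047 and lower in mouse 1069, with log2 changes of 0.20, 0.54 and -1.06. The fitted change was -0.44 ± 0.36 (SE, DESeq2 adjusted p = 0.401), and without mouse 1069 its sign turned, to 0.26 (DESeq2 adjusted p = 0.272). In undepleted libraries a log2 fold change of 0.12 (standard error 0.50) rests on 18 counts in all and was likewise removed by independent filtering. Whether miR-152-3p changed over time could thus not be judged from undepleted libraries, with 0 to 6 counts in each.

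**Figure D4:**
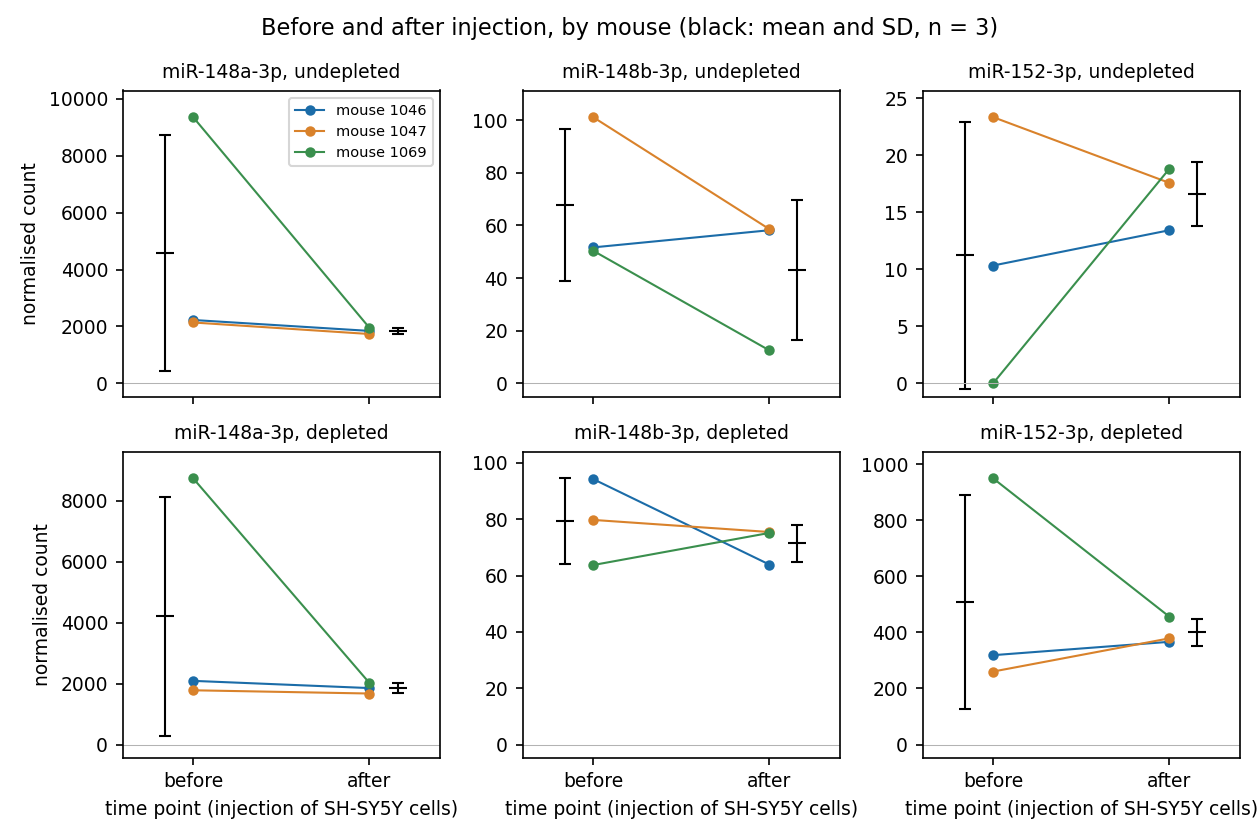
Normalised counts of the members before and after injection in each mouse (coloured lines), in undepleted (top) and depleted (bottom) libraries, with the mean and SD of 3 mice in black. For miR-148a-3p and, in depleted libraries, for miR-152-3p the line of mouse 1069 falls from far above the others, to 2023 and 456 in depleted libraries, whereas those of mice 1046 and 1047 stay close together.

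The members were then set against each other over time. In depleted libraries the log2 ratio of miR-152-3p to miR-148a-3p was -2.71, -2.77 and -3.20 before injection and -2.34, -2.14 and -2.15 after it in mice 1046, 1047 and 1069. Every mouse had a higher ratio at the later bleed, by 0.37 to 1.05, and the groups did not overlap. The difference of 0.69 gave p = 0.1 in a two-sided exact permutation test, the smallest value 3 against 3 can give, and 0.3 after Benjamini-Hochberg adjustment over the 6 ratios tested. These permutation tests did not pair the sera of a mouse. Without mouse 1069 the difference was 0.50. The ratio of miR-148b-3p to miR-148a-3p was 0.66 higher after injection (exact permutation test, p = 0.9), and that of miR-152-3p to miR-148b-3p 0.03 higher (p = 1 in the exact permutation test). In undepleted libraries the 3 ratios had exact permutation p-values between 0.1 and 0.9. The lowest belonged to miR-152-3p over miR-148b-3p, 1.43 higher after injection and higher in 3 mice (0.3 after Benjamini-Hochberg adjustment). It rests on 0 to 6 counts of miR-152-3p per library.

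Whether the change over time differed between aliquots was tested as an interaction. None of the 874 miRNAs passed an adjusted p-value of 0.05 in DESeq2, a background of 0%, and 3 had an unadjusted p-value under 0.05. edgeR also gave none, with 11 at an unadjusted p-value under 0.05. The interaction was 0.12 (standard error 0.88) for miR-148a-3p, 0.52 (standard error 0.54) for miR-148b-3p and -0.59 (standard error 0.98) for miR-152-3p on the log2 scale, each with a DESeq2 adjusted p of 0.998. This fit leaves out that the aliquots of a serum share their RNA. When each serum was entered as a replicate block, the interaction was 0.15 (standard error 0.10) for miR-148a-3p, 0.49 (standard error 0.62) for miR-148b-3p and -0.33 (standard error 1.19) for miR-152-3p, each with a DESeq2 adjusted p of 0.999. The blocked estimate was thus the most precise for miR-148a-3p, and for the other members the standard errors were larger than the estimates.

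In the human tables the same counts appeared again. For each member exactly 1 human miRNA had identical counts in all 12 libraries: MIMAT0000243 for miR-148a-3p, MIMAT0000759 for miR-148b-3p and MIMAT0000438 for miR-152-3p. They were matched by counts alone, with totals of 93293, 2644 and 14813. The next closest human miRNA differed by 31825, 374 and 2117 counts in sum over the libraries. For these miRNAs the files do not separate reads of mouse and human origin, before or after injection of human cells.

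Finally, mouse miRNAs with a similar course over the 12 libraries were sought, by Pearson's r of log2(normalised count + 1) among the 115 miRNAs. All points share libraries and depth. Over the 12 libraries r takes in the difference between aliquots, the contrast the members were chosen on, so the values are a description. Between the members, r over both kinds of library was -0.05 for miR-148a-3p and miR-148b-3p, -0.21 for miR-148a-3p and miR-152-3p, and 0.38 for miR-148b-3p and miR-152-3p. miR-148a-3p was closest to MIMAT0000522 (r = 0.82), MIMAT0000153 (0.80) and MIMAT0000247 (0.79), whose gains upon depletion were -0.00031, 0.78 and -0.03. miR-148b-3p was closest to MIMAT0000545 (r = 0.92), MIMAT0000546 (0.85) and MIMAT0000521 (0.79), with gains of 1.34, 0.72 and 0.65. Their r with miR-148b-3p was 0.13, 0.44 and 0.37 within the 6 depleted libraries alone. For miR-152-3p these were MIMAT0009458 (r = 0.96), MIMAT0029894 (0.95) and MIMAT0000224 (0.92), with gains of 4.41, 1.76 and 5.15. Within the 6 depleted libraries alone, the same 3 had r of -0.91, -0.19 and -0.39 with miR-152-3p, whereas miR-148a-3p had 0.91, a value that includes the high serum of mouse 1069.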

How the data were processed

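The deposited values are raw read counts per mature miRNA, 1 mouse and 1 human table per library. The authors trimmed adaptors with Cutadapt 1.8.1, mapped with Bowtie 1.1.2 without mismatches and assigned reads by miRBase coordinates on GRCm38/mm10 or GRCh37/hg19. How reads with several loci were counted is not given in the sources used here. A miRNA not listed was taken as 0.

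The study also used DESeq2. Here, tumor effects were fitted with DESeq2 1.42.0 in R 4.3.3 over all mouse miRNAs (time point only, Wald test, prior on fold changes, Benjamini-Hochberg adjustment), and the interaction without prior. Other values came from Python 3.11.15 and SciPy 1.17.1. Alternatives were TMM factors, edgeR 4.0.16, a filter of 4 counts in 3 libraries, no prior, no fold cut-off, a mouse or serum block and leaving out each mouse. Fits were tested on simulated data. The plan named the members, their human counterparts, miR-16-5p and, per member, the 3 most similar miRNAs, which were picked from these values. MIMAT0000657 lies outside that plan, and like the most similar miRNAs it was named after its values were seen.

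The labels pair aliquots by serum and sera by mouse. As a check, deviations from the group mean were correlated: r averaged 0.55 for aliquots of a serum, -0.17 for the sera of a mouse in depleted and -0.12 in undepleted libraries. The members and lists were chosen with earlier results of these data known. Names and sequences came from RefSeq (GRCm38.p6), which matched all 3 members by name. Its table pairs no accession with a name, so marker lists, other seed families and opposite hairpin arms were not analysed here.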

Additional observations from a re-analysis of the deposited data

How the results depend on the processing

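Of the members, miR-148a-3p changed its call over time: in depleted libraries its log2 fold change also passed with the filter of 4 counts in 3 libraries (-1.06, DESeq2 adjusted p = 0.0456), beside the -1.03 (TMM) and -1.22 (edgeR) given above, and in undepleted libraries with TMM (-1.04) and edgeR (-1.26). Without each mouse in turn it ranged from -1.39 to -0.22 in depleted and from -1.37 to -0.33 in undepleted libraries, and passed both thresholds without mouse 1046 (-1.39 and -1.37, DESeq2 adjusted p = 0.0388 and 0.0490). Leave-one-out values for miR-152-3p ran from -0.61 to 0.26 and from -0.046 to 0.29, so the sign turned without mouse 1069 (0.26 and -0.046). Dropping the fold cut-off raised the number of called miRNAs from 33 to 52 (depleted) and from 12 to 21 (undepleted). Leaving out 1 mouse gave 11 to 32 and 1 to 11, fewest without mouse 1047, and 19 and 7 without mouse 1069. With the mouse as a replicate block 26 and 11 were changed, and no member crossed both thresholds. The interaction of miR-148a-3p turned to -0.093 with TMM and -0.0995 with edgeR, and that of miR-152-3p ranged from -1.61 to 0.54 without each mouse, 0.54 without mouse 1069. That of miR-148b-3p ranged from 0.11 without mouse 1069 to 1.22 without mouse 1046. With the serum as a replicate block no interaction was called.

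The gain of miR-148a-3p upon depletion was 0.20 with TMM sizes and 0.040 by CPM. Over the 115 miRNAs these scalings moved the median gain from 0.005 to 0.28 and 0.12, so relative to the median it stayed below 0. By shares pooled over sera it was above the median (0.22 against 0.17, rank 55 in place of 74), while miR-148b-3p moved from rank 19 to 31 and miR-152-3p stayed first. The gain of miR-148b-3p ranged from 0.25 to 0.95 and that of miR-152-3p from 4.32 to 5.98 without each mouse, 4.32 without mouse 1069. Over time, the ratio of miR-152-3p to miR-148b-3p in depleted libraries turned to -0.34 without mouse 1046 and -0.27 without mouse 1047 (range to 0.69), and that of miR-148b-3p to miR-148a-3p to -0.19 without mouse 1069 in depleted (range to 1.18) and -0.020 without mouse 1046 in undepleted libraries (range to 0.43). In all, 130 of the alternative values kept direction and call, or stayed within 1 SD, 9 reversed, 2 moved, 9 became stronger and 4 weaker. The 130 include the members' log2 fold changes without the fold cut-off, which that setting cannot alter. The cause of the shifts was not tested. The filter removed miR-152-3p from the undepleted fit, so it has no value there. The alternatives for seed families were not run, since accessions could not be matched to sequences. The 2 to 26 undepleted counts of miR-148b-3p and 0 to 6 of miR-152-3p limit every undepleted value. The leaving-out of the serum with 0 counts and the ranking by pooled shares were chosen after seeing the data. So was the look at the first serum of mouse 1069 with its 4-fold cut-off.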
